A study of Bos taurus with 9 samples.

Results

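Solute carriers are membrane proteins that move nutrients, ions and metabolites across the plasma membrane and the membranes of organelles, and their genes carry the prefix SLC. The set described here held 156 genes of the 20679 in the deposited tables: those with a name of the form SLC, number, A, number and a mean of at least 5 TPM (a level scaled to transcript length and to the library's total) over 9 libraries. Of the 333 genes with such a name, 171 lay below that mean and 6 (SLC2A1, SLC7A11, SLC11A2, SLC12A2, SLC39A14 and SLC40A1) were left out by name. The 3 members just inside the limit were SLC23A2_2 with a mean of 5.08 TPM, SLC38A5 with 5.32 TPM and SLC7A5_1 with 5.36 TPM. The 3 genes just outside it were SLC34A2 with 4.96 TPM, SLC5A9 with 4.80 TPM and SLC27A2 with 4.65 TPM. Since the members were selected on TPM in these libraries, their levels are given as a description, and no claim rests on how high they are.

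RNA-seq was performed on bovine uterine gland fragments after 5 days of three-dimensional culture, with 3 libraries per group. The CYST group was cultured in Matrigel without epidermal growth factor (EGF), the MAT group in Matrigel with EGF, and the MAT + COL group with EGF in Matrigel to which type I collagen had been added. Fragments without EGF had formed cysts and those with EGF had formed uterine gland-like (UG-LIKE) structures, and all groups shared a DMEM/F12 medium with insulin, transferrin, selenite, ascorbic acid and albumin. The labels name epithelial cells of the uterine gland as the source but give no animal or age; per the study's methods, the uteri came from an abattoir, held no visible conceptus and were at stage III of the cycle, with a corpus luteum on the ovary of the same side. Presence of EGF and shape of the structure cannot be told apart in this design. The labels do not say whether replicates came from separate animals or cultures. The study speaks of its MAT and MAT + COL samples as coming from individuals, without tying a replicate number to an animal, so the spread between libraries that the p values measure, and the part that a replicate block removes, may include differences between animals as well as technical ones.

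Carriers differ in what drives them: some use the sodium gradient to concentrate a substrate, some exchange one substrate for another, and some let a substrate run down its own gradient. The SLC25 family sits mainly in the inner mitochondrial membrane, SLC30 and SLC39 carry zinc in opposite directions, and SLC35 brings nucleotide sugars into the Golgi and endoplasmic reticulum. In the uterus, gland epithelium secretes glucose, amino acids, ions and other nutrients into the lumen, where they bathe the early conceptus.

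Total counts per library lay between 8424028 and 16829884 in CYST, 6568968 and 17936445 in MAT, and 16665013 and 17948600 in MAT + COL. The label of epithelium was checked on 6 markers, all detected, whose summed level was 19120 to 21880 TPM in CYST, 31190 to 48590 TPM in MAT and 31420 to 42930 TPM in MAT + COL. Of 3 gland markers, PAX8 had a mean of 41.8 TPM, FOXA2 only 3.66 TPM and SOX17 0.211 TPM. Stromal markers were present too: the 8 listed summed to 2021 to 4566 TPM in CYST, 755.5 to 3002 TPM in MAT and 1905 to 3506 TPM in MAT + COL. In these bulk samples, fewer cells of a type and less RNA per cell cannot be told apart.

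The members came from 42 SLC families and were sorted by hand into 13 classes by substrate, family or place in the cell. Unassigned genes and name matches that are no carriers had classes of their own. A class therefore does not show that each of its genes is known to carry that substrate. Their mean levels ran from 5.08 to 403.8 TPM with a median of 22.3 TPM. There were 19 members at 100 TPM or more and 31 below 10 TPM, and the 10 highest held 36.6% of the summed level of all members. Mitochondrial carriers formed the largest class, with 32 genes and 29.1% of the summed level, followed by amino acid and peptide carriers (24 genes, 14.4%) and metal carriers (19 genes, 14.6%). The members together summed to between 6698 TPM (CYST replicate 3) and 8349 TPM (CYST replicate 1), so that the lowest and highest of the 9 libraries were both in CYST.

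**Figure D1:**
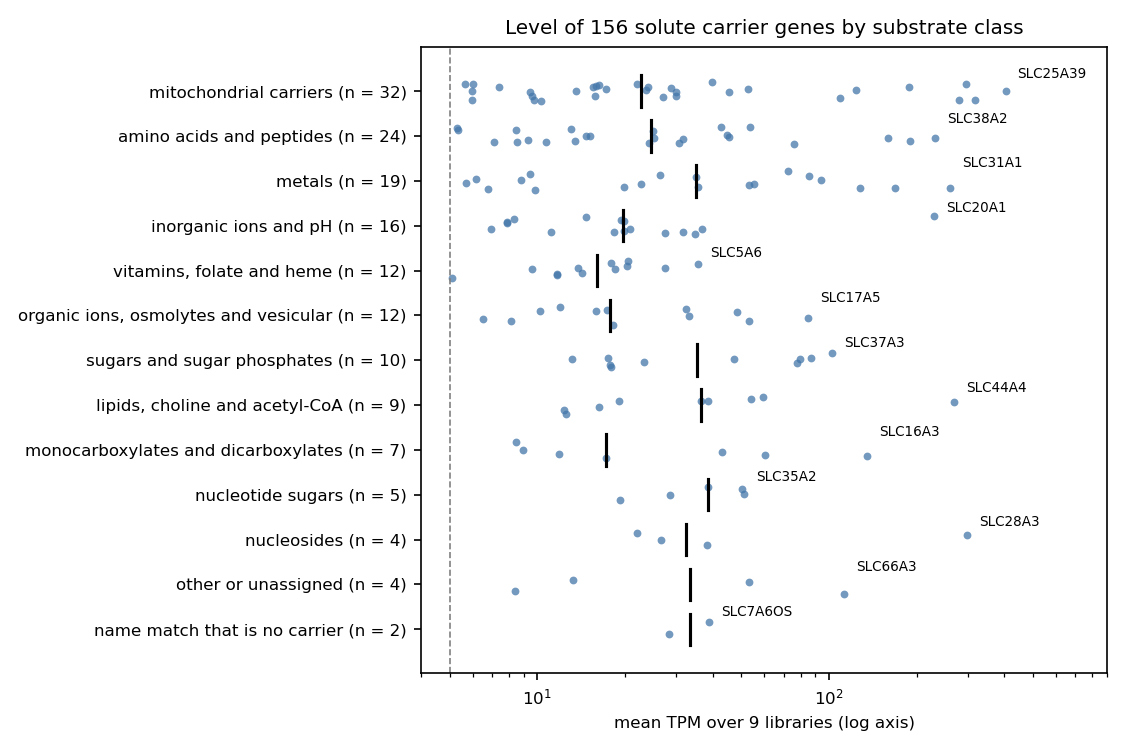
Mean TPM over 9 libraries (x, log axis) of the 156 members, 1 point per gene, by substrate class (y, with the number of genes). Black bars are class medians, the dashed line marks 5 TPM, and the highest gene of each class is named; SLC25A39 stands highest at 403.8 TPM.

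SLC25A39, which brings glutathione into mitochondria, had the highest level, with 440.2 ± 50.9 TPM in CYST, 379 ± 37.2 TPM in MAT and 392 ± 9.63 TPM in MAT + COL (mean ± SD, n = 3). It was followed by SLC25A5, an exchanger of ADP and ATP, at a mean of 316 TPM. The concentrative nucleoside carrier SLC28A3 (297 TPM) and the ATP and phosphate carrier SLC25A24 (295 TPM) came next. The second ADP and ATP exchanger among the highest 10 was SLC25A6_2 (280.1 TPM), and another entry, SLC25A6_1, was also a member. The SLC25A4, SLC25A5 and SLC25A6 genes are close copies whose reads may have been split among them. SLC25A6_2 lies on chromosome Y in the deposited tables, and RefSeq's gene table has SLC25A6 on chromosome 26. In tissue from a uterus, the reads given to SLC25A6_2 may therefore belong to another copy. The rest of the highest 10 were the choline transporter-like SLC44A4 (269 TPM), the copper importer SLC31A1 (260.1 TPM), the neutral amino acid carrier SLC38A2 (231 TPM), the phosphate importer SLC20A1 (229.8 TPM) and SLC3A2 (189 TPM), the heavy chain that brings SLC7 carriers to the cell surface. In the other classes the highest members were the lactate exporter SLC16A3 (135 TPM), SLC66A3 (113 TPM), SLC37A3 of the sugar phosphate carrier family (102 TPM) and the sialic acid carrier SLC17A5 (84.7 TPM). They also included the UDP-galactose carrier SLC35A2 (51.2 TPM), SLC7A6OS (38.9 TPM), which bears the name but is no carrier, and the biotin and pantothenate carrier SLC5A6 (35.5 TPM). SLC35A2 and SLC37A3 also varied little, with the highest library at 1.41 times the lowest in each.

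Members that were low in 1 group entered the set through another. The mean weighed MAT and MAT + COL, both with EGF, against CYST alone, so genes high only with EGF reached it more easily. SLC34A2, at 11.0 TPM in CYST, 2.56 TPM in MAT and 1.33 TPM in MAT + COL, stayed outside. Counts of members higher or lower than CYST, and the extremes among members, carry this selection. In 15 members the mean of at least 1 group was below 5 TPM. The lowest such mean was that of SLC6A14 in CYST, at 1.91 ± 1.89 TPM, against 42.9 ± 17.5 TPM in MAT. SLC15A2, SLC6A12, SLC46A3 and SLC4A7, also called higher in MAT with the block below, had CYST means of 3.93, 2.77, 4.10 and 4.36 TPM. These members entered through the EGF groups, so their rises partly restate the membership rule. SLC25A20, called lower with the block, had a MAT mean of 2.71 TPM. All 156 members passed the filter on low counts in each comparison.

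The first comparison asked how carrier expression differed between UG-LIKE structures and cysts. In MAT, the amino acid carriers SLC6A14, SLC36A4 and SLC15A2, the sugar carriers SLC5A1 and SLC37A1 and the nucleoside carrier SLC28A3 stood higher, while SLC1A1, SLC1A5, SLC3A2 and SLC7A1 for amino acids, SLC25A5 in mitochondria and SLC29A1 for nucleosides stood lower. With edgeR's quasi-likelihood test on counts and adjustment over all genes, 4 of 156 members passed an adjusted p under 0.05: SLC37A1 rose and SLC29A1, SLC25A5 and SLC1A1 fell. Among all 12074 genes tested, 1.79% passed, 0.845% higher and 0.944% lower in MAT. The replicate numbers of the labels tied libraries together, and with the replicate number as a block 31 members passed, 15 higher and 16 lower, or 19.9%. Under that fit 10.6% of all genes tested passed (4.9% higher and 5.67% lower), and 13.1% of the 9027 tested genes with a mean of at least 5 TPM. Because a block removes what libraries of the same number share, both adjusted p values are given for each gene below, without and then with the block. Unless the block is named, the Log2FC ± SE of a gene is from the fit without it, not the estimate behind the blocked p.

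The median Log2FC of the 156 members was 0.04, against 0.01 over all genes tested, with 80 members above 0 and 76 below. In 26 members (16.7%) all MAT libraries lay above all CYST libraries in TPM. Of all genes tested 11.9% did so, and 12.5% of those with a mean of at least 5 TPM. In 19 members (12.2%) all MAT libraries lay below, where the shares were 11.8% and 13.0%. The membership rule favoured genes high with EGF, so these counts cannot be read as a difference in direction. The count of calls rested on single libraries. Without the block, no member passed when CYST replicate 1, CYST replicate 2, MAT replicate 1 or MAT replicate 2 was left out, and 5 to 32 of all genes did. It was 8 members without CYST replicate 3 (267 of all 12457 genes tested) and 4 without MAT replicate 3 (122 of 12194 genes). With the block, 2 members passed when both libraries of replicate number 1 were left out (36 of all 12453 genes tested), 15 without number 2 (614 of 12008 genes) and 39 without number 3 (1867 of 12164 genes), so that the members' count moved with that of all genes.

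**Figure D2:**
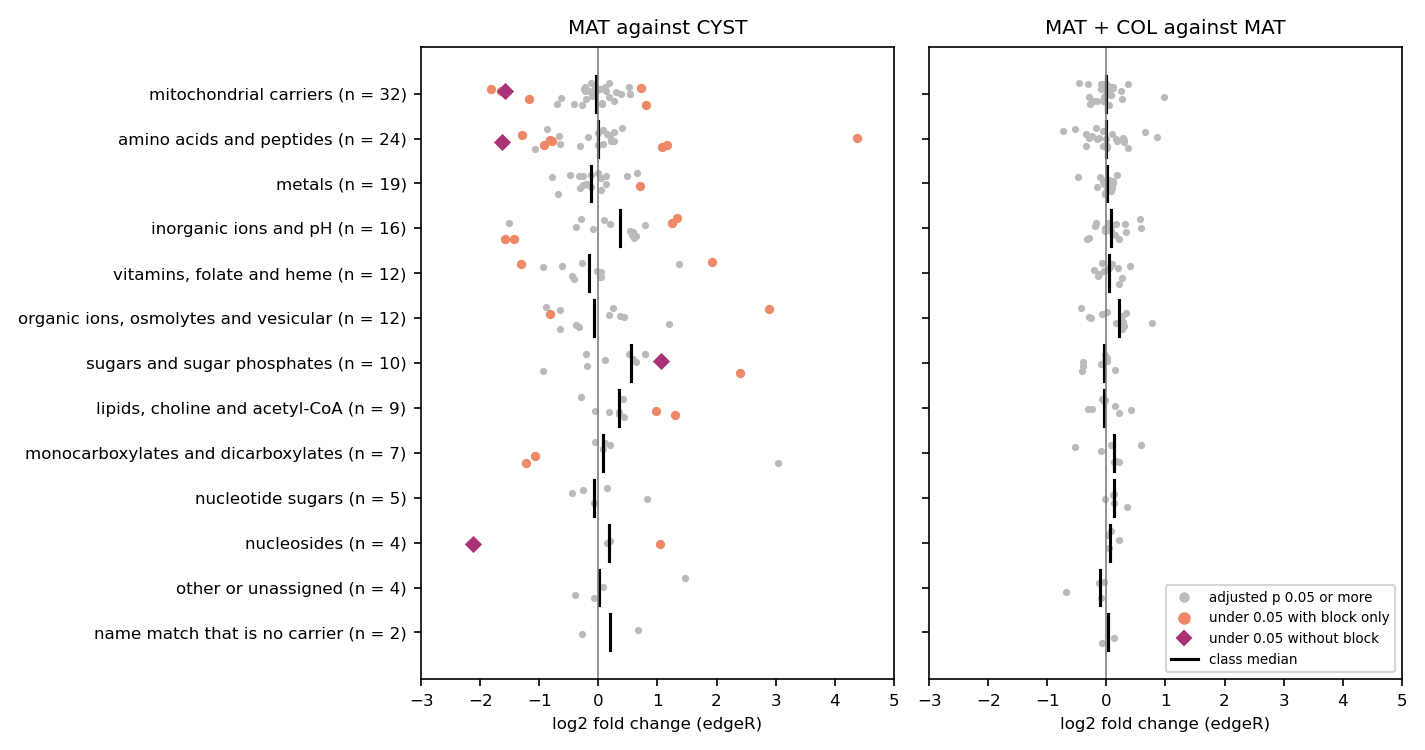
Log2 fold change of each member (x) by substrate class (y) in MAT against CYST (left) and MAT + COL against MAT (right), from the fit without a block. Diamonds passed an adjusted p under 0.05 without the block (4 members, left panel) and orange points only with it (27 members, left panel); no member passed on the right. Black bars are class medians.

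Amino acid and peptide carriers moved in both directions: of 24 members, 1 fell without the block, and with it 3 rose and 5 fell. Over all genes tested, 1.79% passed without and 10.6% with the block, and these shares apply to each class below. Among those that rose, SLC6A14 and SLC15A2 entered the set through the EGF groups. SLC6A14 takes up neutral and cationic amino acids with sodium and chloride. It was at 0.0659, 1.83 and 3.83 TPM in CYST (replicates 1, 2 and 3) and at 25.9, 42.1 and 60.8 TPM in MAT. The groups did not overlap, and replicate 3 was highest in both. The Log2FC was 4.39 ± 0.91 (SE), the largest of all members, with an adjusted p of 0.0558 without and 0.0048 with the block. The gene (X chromosome, 428096 to 840270, plus strand, assembly ARS-UCD2.0) overlaps AGTR2 on the opposite strand, which was at 0.0908 TPM or less in every library. SLC36A4, a carrier of proline and tryptophan, was at 6.02, 10.1 and 5.86 TPM in CYST and 13.2, 22.1 and 11.2 TPM in MAT. Its groups did not overlap either, although the lowest MAT library lay close to the highest CYST library. Its Log2FC was 1.08 ± 0.32 (adjusted p = 0.108 and 0.0252). SLC15A2, the high-affinity peptide carrier, was at 2.62, 4.12 and 5.05 TPM in CYST and 6.92, 8.23 and 11.8 TPM in MAT (Log2FC 1.15 ± 0.38, adjusted p = 0.138 and 0.0235).

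The amino acid carriers that fell with the block included 4 of the 5 highest of the class. SLC1A1, which takes up glutamate and cysteine, was at 138, 145 and 111 TPM in CYST and 27.4, 43.1 and 55.5 TPM in MAT. All MAT libraries lay below all CYST libraries, and the Log2FC was -1.64 ± 0.27 (adjusted p = 0.0401 and 0.00911). SLC1A5, the exchanger of glutamine and other neutral amino acids, was at 331, 185 and 207 TPM in CYST and 168, 102 and 116 TPM in MAT. Its values fell within each replicate number, but replicate 1 of MAT came close to replicate 2 of CYST, and the Log2FC of -0.92 ± 0.28 passed only with the block (adjusted p = 0.124 and 0.0177). SLC3A2 was at 307, 269.6 and 221 TPM in CYST and 198, 153 and 116 TPM in MAT (Log2FC -0.78 ± 0.22, adjusted p = 0.0965 and 0.0307). SLC7A1, an importer of arginine and lysine, was at 35.2, 42.3 and 27.7 TPM in CYST and 21.4, 20.5 and 17.9 TPM in MAT (Log2FC -0.81 ± 0.16, adjusted p = 0.0534 and 0.0252). Neither group overlapped the other in SLC3A2 or SLC7A1. SLC36A2, which carries glycine and proline with protons, was at 96.4, 120.0 and 19.2 TPM in CYST and 34.7, 51.4 and 6.85 TPM in MAT. Here the groups overlapped, because replicate 3 was low in both. The Log2FC was -1.29 ± 0.74 without the block (adjusted p = 0.371) and -1.39 ± 0.20 with it (adjusted p = 0.0105). SLC38A2, the highest of the class, did not pass: it was at 284, 294 and 161 TPM in CYST and 201, 212 and 173 TPM in MAT. SLC7A5_1, the light chain that SLC3A2 partners for leucine uptake, was low, with a mean of 5.36 TPM, and its gene model shares 27348 bases on the same strand with SLC7A5_2, so reads could be divided between them.

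In the nucleoside class, SLC28A3 stood higher in MAT and SLC29A1 lower. SLC28A3 uses the sodium gradient to concentrate nucleosides, and SLC29A1 lets them equilibrate across the membrane. SLC28A3 was at 183, 135 and 172 TPM in CYST and at 372, 294 and 364 TPM in MAT, with no overlap. The Log2FC was 1.04 ± 0.23 (adjusted p = 0.0621 without and 0.0125 with the block). SLC29A1 (chromosome 23, 17730856 to 17742860, plus strand) was at 45.5, 43.7 and 41.7 TPM in CYST and at 9.46, 7.34 and 13.2 TPM in MAT. The CYST libraries lay close together and above all MAT libraries. Its Log2FC of -2.13 ± 0.27 was the lowest of all members and passed in both fits (adjusted p = 0.0216 and 0.00243), but not without 1 of CYST replicates 1 and 2 or MAT replicates 1 and 2 (adjusted p up to 0.118). The other equilibrative carriers, SLC29A2 (Log2FC 0.14 ± 0.35) and SLC29A3 (Log2FC 0.20 ± 0.31), had overlapping groups and did not pass. Their sign was that of SLC28A3, but both estimates were smaller than their SE. They cannot show whether the class divided by kind of carrier.

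The 10 members of the class of sugars and sugar phosphates had a median Log2FC of 0.55 (0.42 with the block), with 7 above 0. In this class 1 rose without the block and 2 with it. SLC37A1 (chromosome 1, 142778137 to 142873903, plus strand) exchanges glucose 6-phosphate for phosphate at the endoplasmic reticulum. It was at 49.3, 50.6 and 33.2 TPM in CYST and at 98.0, 89.3 and 89.3 TPM in MAT. All MAT libraries lay above all CYST libraries, and the Log2FC was 1.06 ± 0.17 (adjusted p = 0.0333 and 0.0134). The call without the block was lost when any library but CYST replicate 3 was left out. SLC5A1, which takes up glucose with sodium, was at 0.0726, 1.05 and 16.8 TPM in CYST and 22.8, 26.2 and 57.5 TPM in MAT. CYST replicate 1 held 1 read of this gene and replicate 3 was highest in both groups. Its Log2FC was 2.40 ± 1.29 without the block (adjusted p = 0.343) and 3.84 ± 0.84 with it (adjusted p = 0.0321). The glucose carrier SLC2A3 did not pass in either fit, and its spread within a group was wide, from 19.1, 25.4 and 286 TPM in CYST to 13.8, 31.2 and 146 TPM in MAT.

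Of 32 mitochondrial carriers, 1 fell without the block, and 2 rose and 4 fell with it. SLC25A5 (chromosome X, 3852626 to 3855518, plus strand) was at 689.5, 583 and 414 TPM in CYST and 183, 215 and 166 TPM in MAT. The MAT libraries lay close together and well below CYST, and the Log2FC was -1.57 ± 0.20 (adjusted p = 0.0216 and 0.00488). SLC25A4, its close copy, was at 76.9, 60.7 and 66.7 TPM and 43.3, 51.0 and 39.2 TPM and did not pass. SLC25A6_2, whose reads may belong to another copy, was at 265, 353 and 168 TPM and 282, 333 and 315 TPM, with overlapping groups. The members that fell with the block alone were SLC25A12, an aspartate and glutamate exchanger (Log2FC -1.17 ± 0.25, adjusted p = 0.0567 and 0.0281), SLC25A48 (Log2FC -1.65 ± 0.48, adjusted p = 0.108 and 0.0313), and the acylcarnitine carrier SLC25A20 (Log2FC -1.82 ± 0.50, adjusted p = 0.0957 and 0.0498). SLC25A24 was the member of this class that rose at a high level, from 243, 205 and 154 TPM in CYST to 346, 373 and 275 TPM in MAT (Log2FC 0.72 ± 0.19, adjusted p = 0.0905 and 0.0378). SLC25A46, a protein of the outer membrane that shapes mitochondria, also rose with the block (Log2FC 0.81 ± 0.30, adjusted p = 0.177 and 0.0466), although its groups overlapped. SLC25A39 and the phosphate carrier SLC25A3, at 257, 206 and 157 TPM in CYST and 212, 153 and 164 TPM in MAT, did not pass in either fit.

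Among 16 carriers of inorganic ions, none passed without the block, and 2 rose and 2 fell with it. Both that rose import bicarbonate with sodium. SLC4A4 was at 11.7, 5.36 and 9.52 TPM in CYST and 20.6, 25.2 and 22.2 TPM in MAT (Log2FC 1.32 ± 0.32, adjusted p = 0.0719 and 0.0302). SLC4A7 was at 5.33, 3.90 and 3.84 TPM in CYST and 8.76, 9.97 and 12.4 TPM in MAT (Log2FC 1.25 ± 0.25, adjusted p = 0.054 and 0.0225). In neither gene did the groups overlap. Both that fell are anion carriers: SLC5A5 takes up iodide with sodium, and SLC26A7 exchanges chloride and other anions. SLC5A5 was at 61.1, 31.1 and 51.2 TPM in CYST and 15.7, 20.5 and 17.9 TPM in MAT (Log2FC -1.44 ± 0.31, adjusted p = 0.0588 and 0.0307). SLC26A7 was at 68.6, 63.0 and 36.5 TPM in CYST and 20.9, 28.8 and 6.39 TPM in MAT, with replicate 3 lowest in both (Log2FC -1.58 ± 0.47, adjusted p = 0.113 and 0.0172). All MAT libraries lay below all CYST libraries in both genes. The potassium chloride cotransporters SLC12A4 and SLC12A7 and the phosphate importer SLC20A1 did not pass in either fit.

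Of 12 organic ion, osmolyte and vesicular carriers, 1 rose and 1 fell with the block and none passed without it. SLC6A12, which takes up betaine and GABA, was at 5.95, 1.86 and 0.490 TPM in CYST and 27.3, 25.6 and 6.25 TPM in MAT. The values rose within each replicate number while replicate 3 was lowest in both groups, so that MAT replicate 3 lay only just above CYST replicate 1. The Log2FC was 2.89 ± 0.84 (adjusted p = 0.107 and 0.00719). An unnamed gene on the opposite strand overlapped SLC6A12 over 17428 bases, at a mean of 17.0 TPM in CYST and 17.3 TPM in MAT. The urea carrier SLC14A1 fell with the block, from 43.7, 64.0 and 23.9 TPM in CYST to 28.2, 27.6 and 17.1 TPM in MAT (Log2FC -0.82 ± 0.31, adjusted p = 0.183 and 0.0393). The taurine carrier SLC6A6 was at 15.5, 6.54 and 1.70 TPM in CYST and 13.7, 10.3 and 2.33 TPM in MAT and did not pass.

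Of 7 monocarboxylate carriers, 2 fell with the block and none rose. SLC16A1, which moves lactate and pyruvate with protons, was at 1.32, 0.778 and 7.14 TPM in CYST and 19.2, 55.6 and 9.83 TPM in MAT. The groups did not overlap, but replicate 3 was highest in CYST and lowest in MAT, and the Log2FC of 3.04 ± 0.99 passed in neither fit (adjusted p = 0.135 and 0.0856). It passed without the block when CYST replicate 3 was left out. The lactate exporter SLC16A3 was at 66.9, 91.2 and 199.6 TPM in CYST and 96.9, 151 and 186 TPM in MAT and did not pass. Among the members that fell was SLC16A13 (Log2FC -1.22 ± 0.32, adjusted p = 0.0843 and 0.0428). SLC16A13 overlaps its neighbour SLC16A11, also a member, by 196 bases on the opposite strand of chromosome 19, and SLC16A11 was at 82.8, 51.1 and 43.3 TPM in CYST and 73.9, 45.7 and 51.7 TPM in MAT with overlapping groups.

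Among 9 lipid and choline carriers, 2 rose with the block and none fell, and 7 had a Log2FC above 0. SLC44A3, a choline transporter-like protein, was at 44.9, 35.2 and 27.9 TPM in CYST and 75.2, 74.0 and 62.6 TPM in MAT (Log2FC 0.97 ± 0.19, adjusted p = 0.0524 and 0.0194). SLC27A5, an enzyme and carrier that links fatty acids and bile acids to coenzyme A, was at 26.7, 20.6 and 11.3 TPM in CYST and 44.5, 37.2 and 60.1 TPM in MAT (Log2FC 1.30 ± 0.31, adjusted p = 0.0719 and 0.0378). Neither gene's groups overlapped. SLC44A4, the highest of the class, was at 246, 214 and 189 TPM in CYST and 352, 302 and 223 TPM in MAT and did not pass.

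Of 12 vitamin and heme carriers, 1 rose and 1 fell with the block and none passed without it. SLC5A6 fell with the block, from 70.6, 62.0 and 37.0 TPM in CYST to 32.1, 16.3 and 19.8 TPM in MAT (Log2FC -1.31 ± 0.29, adjusted p = 0.0636 and 0.0134). SLC46A3, a lysosomal carrier, rose with the block, from 3.83, 5.43 and 3.04 TPM in CYST to 21.0, 20.3 and 5.93 TPM in MAT (Log2FC 1.93 ± 0.45, adjusted p = 0.0703 and 0.0224). Replicate 3 of MAT stood far below the other MAT libraries and just above the highest CYST library. Its relative SLC46A1, the proton-coupled folate carrier, was at 7.13, 5.46 and 1.82 TPM in CYST and 9.16, 12.3 and 14.3 TPM in MAT and passed in neither fit (adjusted p = 0.142 and 0.0881).

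Of 19 metal carriers, SLC39A11, a zinc importer, was the only one called in either fit: it was at 77.5, 55.5 and 68.2 TPM in CYST and 101, 84.1 and 145 TPM in MAT, and rose with the block (Log2FC 0.70 ± 0.27, adjusted p = 0.202 and 0.0463). The median Log2FC of the class was -0.13. The copper importer SLC31A1 and the zinc carriers SLC39A7 and SLC39A1 had overlapping groups. The copper carrier SLC31A2 was higher in every MAT library, at 70.6, 79.9 and 70.3 TPM against 61.0, 68.5 and 68.3 TPM in CYST, but did not pass. SLC39A2 was at 16.3, 10.3 and 211 TPM in CYST and 67.8, 93.6 and 107 TPM in MAT, so that CYST replicate 3 stood above all other libraries while the other CYST libraries stood below all of MAT. None of the 5 nucleotide sugar carriers, of the 4 unassigned genes or of the 2 that bear the name without being carriers passed in either fit.

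**Figure D3:**
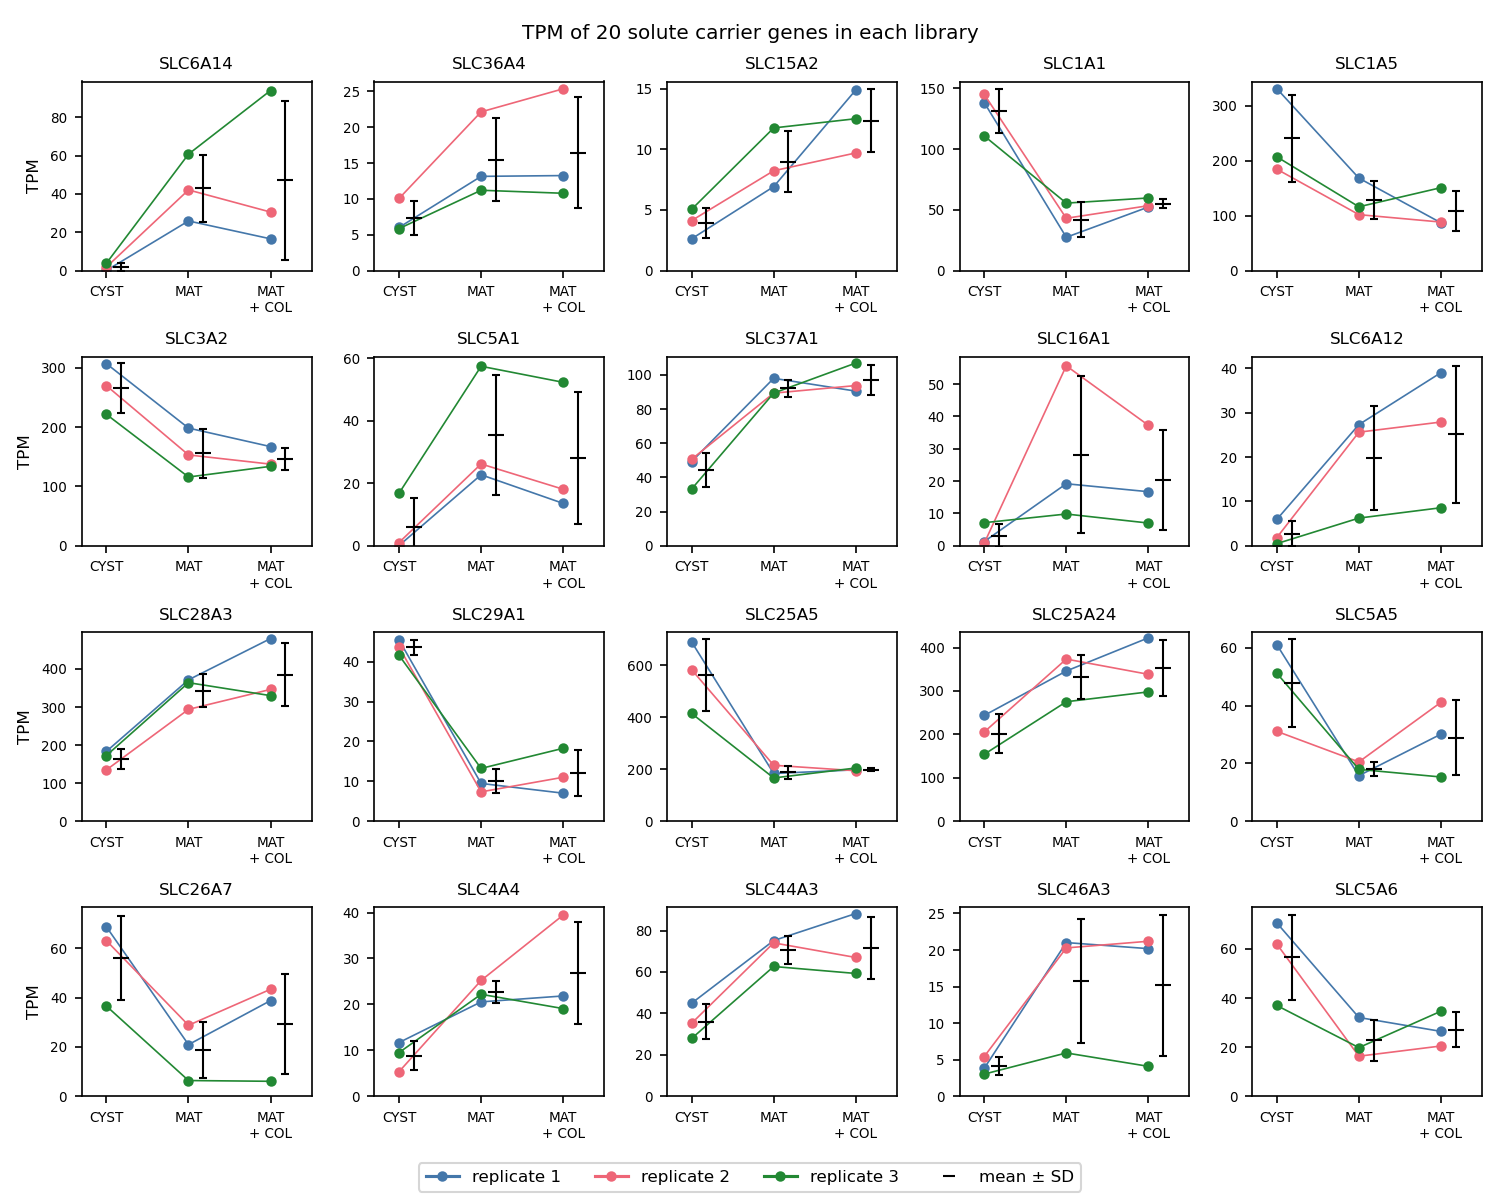
TPM (y, linear from 0) of 20 named members in each library, by group (x); lines join libraries of the same replicate number and black marks are the mean ± SD of 3 libraries. SLC29A1, SLC25A5 and SLC1A1 stand lower in every EGF library than in every CYST library, and SLC6A14, SLC28A3 and SLC37A1 higher.

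Other genes moved with the same groups. Over all genes tested, 0.845% rose and 0.944% fell in MAT without the block, and 4.9% rose and 5.67% fell with it. Of 14 cell cycle genes listed, 6 fell without and 11 with the block in MAT, and their summed level was 1586 to 2509 TPM in CYST and 730.1 to 1147 TPM in MAT. Of the 6 epithelial markers, none passed without the block and 3 rose with it (KRT8, KRT19 and EPCAM). Of the 8 stromal markers, none passed without the block and 1 fell with it, and of 4 smooth muscle markers 1 fell with it, at a summed level of 140.5 to 179.4 TPM in CYST and 38.0 to 83.5 TPM in MAT. No endothelial (4 tested), immune (4 tested), ciliated (2 tested) or gland (2 tested) marker passed in either fit. The part of any of these in the carrier results was not tested. In MAT + COL against MAT, no gene of these lists passed in either fit.

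Carriers and partner proteins whose symbols fall outside the name pattern were read from a list of 46 genes, of which 43 were tested. In MAT, 1 rose and 2 fell without the block, and 2 rose and 7 fell with it. Of all genes tested, 1.79% passed without the block and 10.6% with it. MPC1, a subunit of the mitochondrial pyruvate carrier, was at 188, 129 and 112 TPM in CYST and 44.6, 34.8 and 38.5 TPM in MAT, a Log2FC of -1.87 ± 0.23 (adjusted p = 0.0216 and 0.00289). UCP2, an SLC25 carrier under another name, was at 135, 142 and 99.3 TPM in CYST and 259, 287 and 276 TPM in MAT, a Log2FC of 1.13 ± 0.16 (adjusted p = 0.0269 and 0.0103). In both, the groups were far apart with little spread in MAT. SLC35B1, which exchanges ATP and ADP at the endoplasmic reticulum, fell in both fits (Log2FC -0.94 ± 0.18, adjusted p = 0.0485 and 0.0234). With the block, SLC18B1 rose, and the mitochondrial serine carrier SFXN1, its relatives SFXN2 and SFXN3, SLCO4A1 and SLC35E3 fell.

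The second comparison asked whether type I collagen in the Matrigel changed carrier expression in UG-LIKE structures. No member passed, with or without the block, and none of the 12470 genes tested did (0.0%). Without the block, no member had an unadjusted p under 0.05, where 0.409% of all genes did, and DESeq2 gave 0 calls and 0 members at that p. With the block, 14 members (8.97%) had an unadjusted p under 0.05, where 4.96% of all genes did and 5.66% of those with a mean of at least 5 TPM. The members' Log2FC lay between -0.74 and 0.97, with a median of 0.01. In 4 members (SLC25A40, SLC4A1AP, SLC44A1 and SLC48A1) all MAT + COL libraries lay above all MAT libraries, where 2.75% of all genes did so, and in none did they lie below, where 0.818% did.

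The smallest unadjusted p with the block was that of SLC16A1, at 16.7, 37.2 and 7.04 TPM in MAT + COL (replicates 1, 2 and 3) against 19.2, 55.6 and 9.83 TPM in MAT. It was lower with collagen within each replicate number, but the spread between numbers was larger than that difference (Log2FC -0.54 ± 0.73, unadjusted p = 0.484 without and 0.00286 with the block, adjusted p with the block = 0.955). SLC66A2 (Log2FC -0.68 ± 1.33) and SLC5A1 (Log2FC -0.40 ± 0.63) followed, each lower in every pair and each with a wide spread between numbers. The smallest p without the block belonged to SLC22A16, a carnitine carrier, at 13.2, 21.4 and 9.86 TPM in MAT + COL and 5.39, 9.97 and 8.92 TPM in MAT (Log2FC 0.78 ± 0.39, unadjusted p = 0.088). SLC44A1, a choline carrier, was at 21.5, 23.1 and 30.6 TPM in MAT + COL and 15.8, 19.9 and 17.9 TPM in MAT (Log2FC 0.42 ± 0.23, unadjusted p = 0.103). SLC5A5 was next (Log2FC 0.58 ± 0.34, unadjusted p = 0.127). These 6 are named for their small p alone, and none passed the adjustment. The direction of 3 of them rested on 1 library: without MAT replicate 2 the Log2FC of SLC16A1 was 0.42, and without MAT replicate 3 that of SLC5A1 was 0.18 and that of SLC66A2 0.87.

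MAT + COL was also set against CYST. This comparison shares its CYST libraries with the first and its MAT + COL libraries with the second, so it is not separate evidence. Without the block 5 members passed, where 1.49% of 12509 genes did (0.672% higher and 0.815% lower): SLC37A1 rose, and SLC1A1, SLC25A5, SLC3A2 and SLC7A1 fell. With the block 15 members passed, 8 higher and 7 lower, where 5.26% of all genes (2.68% higher and 2.58% lower) and 6.86% of those with a mean of at least 5 TPM did. No member passed without the block when CYST replicate 1 or 2 or MAT + COL replicate 1 or 2 was left out, and 3 to 7 of all genes did. Without CYST replicate 3, 3 members passed (112 of all 12775 genes tested), and without MAT + COL replicate 3, 6 did (186 of 12766 genes). With the block, 3 passed without number 1 (126 of all 12645 genes tested), 2 without number 2 (109 of 12418 genes) and 40 without number 3 (2406 of 12600 genes).

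Set side by side, SLC37A1 had a Log2FC of 1.06 ± 0.17 in MAT and 1.09 ± 0.18 in MAT + COL, each against CYST. For SLC25A5 the values were -1.57 ± 0.20 and -1.55 ± 0.18, and for SLC1A1 -1.64 ± 0.27 and -1.30 ± 0.16. SLC3A2 had -0.78 ± 0.22 and -0.93 ± 0.15, and SLC7A1 had -0.81 ± 0.16 and -1.03 ± 0.16. In MAT + COL, SLC29A1 was at 7.01, 11.0 and 18.3 TPM (Log2FC -1.89 ± 0.38 against CYST, adjusted p = 0.0579 without and 0.0266 with the block). SLC6A14 was at 16.6, 30.6 and 94.0 TPM there (Log2FC 4.51 ± 1.11, adjusted p = 0.0772 and 0.0163), and SLC6A12 at 39.1, 27.9 and 8.59 TPM (Log2FC 3.17 ± 0.83, adjusted p = 0.0878 and 0.0163). The order of the replicate numbers in SLC6A14 and SLC6A12 was the same in MAT and MAT + COL: number 3 was highest in SLC6A14 and lowest in SLC6A12.

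**Figure D4:**
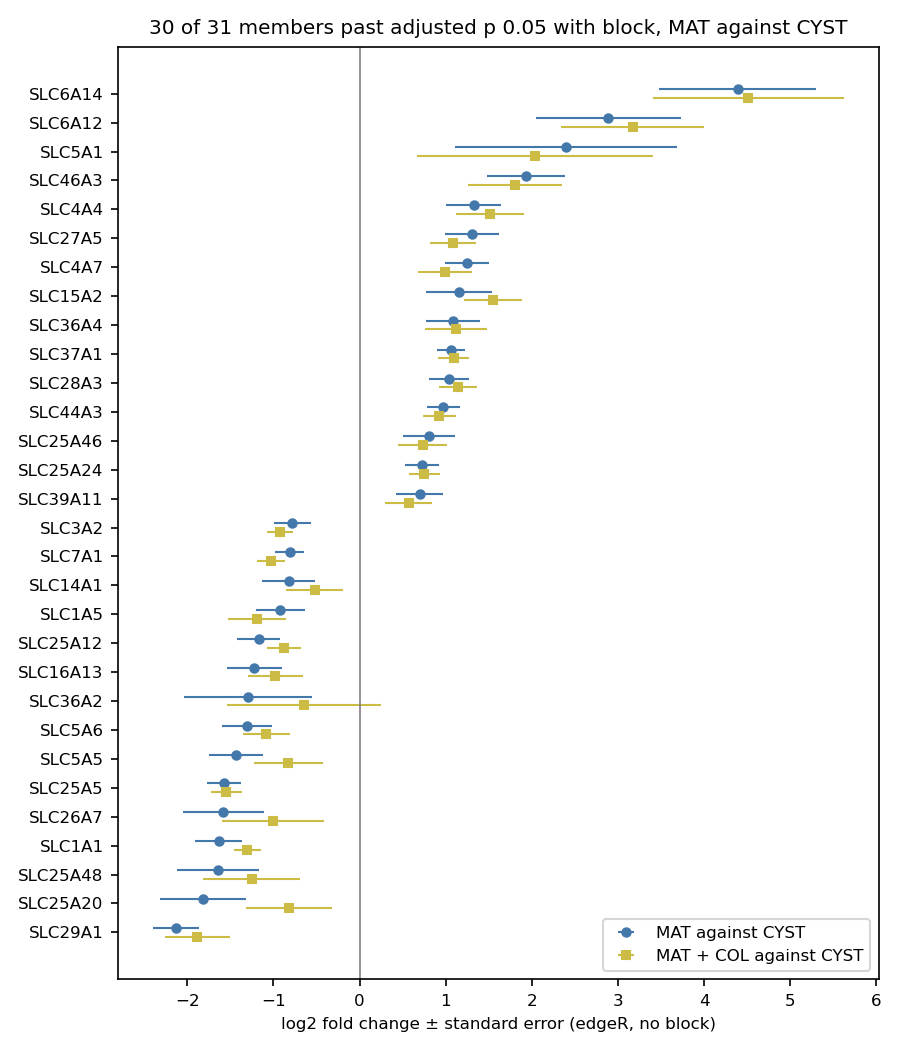
Log2 fold change ± standard error (x, edgeR without a block) of 30 of the 31 members (y) that passed with the block in MAT against CYST, for MAT (circles) and MAT + COL (squares), each against CYST. The CYST libraries are shared; SLC6A14 stands highest in both and SLC29A1 lowest in both.

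Replicate number separated the libraries more than group did in most members, as it did in a similar share of all genes at this level. The sum of squares of log2(TPM + 1) over 9 libraries was split into the parts between groups, between replicate numbers, and left over. The part between replicate numbers was larger than that between groups in 91 of 156 members (58.3%), and in 54.5% of all 9038 genes with a mean of at least 5 TPM. The median member had 24.7% between groups and 39.1% between numbers, against 30.3% and 37.2% over all those genes. Number 3 was lowest in all 3 groups in 47 members (30.1%), and in 28.0% of all those genes.

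Examples came from several classes. The glucose carrier SLC2A3 was at 19.1, 25.4 and 286 TPM in CYST, 13.8, 31.2 and 146 TPM in MAT and 3.35, 46.7 and 146 TPM in MAT + COL, so that number 3 was highest and number 1 lowest in each group. Of its sum of squares, 87.2% lay between numbers and 3.07% between groups. SLC2A5_1, a fructose carrier, ran the other way, with number 1 highest and number 3 lowest in each group and 92.1% between numbers. For SLC6A6 the part between numbers was 93.0% and for SLC66A3 95.6%. At the other end, SLC25A5 had 92.8% between groups, SLC37A1 90.1% and SLC28A3 88.3%. What libraries of the same number share was not tested.

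**Figure D5:**
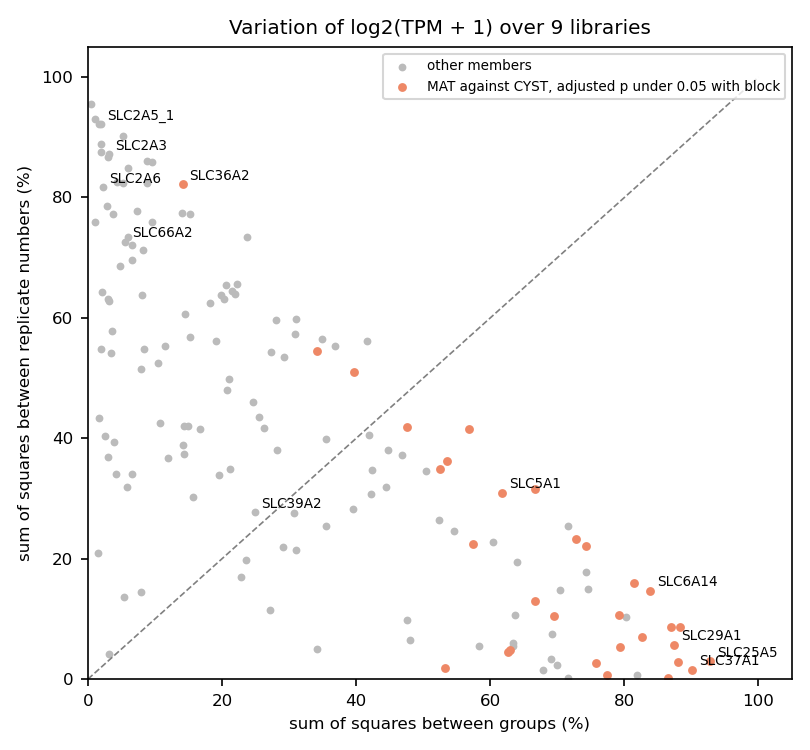
Share of each member's sum of squares of log2(TPM + 1) that lay between the 3 groups (x, %) and between the 3 replicate numbers (y, %), over 9 libraries. Points above the dashed line varied more with replicate number (91 of 156); members called with the block in MAT against CYST are orange.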

How the data were processed

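RNA-seq was performed on 9 libraries (SMART-Seq HT PLUS, paired-end) from 3 groups of 3. After trimming, the authors mapped reads to ARS-UCD2.0 in CLC Genomics Workbench with default settings and deposited raw counts per gene; the annotation release and the strand setting are not given in the sources used here, so overlapping genes on opposite strands cannot be told apart. The authors also deposited TPM values, scaled to transcript length and library total, which were used for levels and for choosing members. Groups and replicate numbers came from the labels. All per-sample columns were used.

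Counts were tested in R 4.3.3 with edgeR 4.0.16: filterByExpr (minimum count 10), TMM, and glmQLFTest, fitted for each comparison on its own 6 libraries. P values were adjusted by Benjamini-Hochberg across all genes tested, and a call was an adjusted p under 0.05. The standard error (SE) given with a Log2FC was derived from the test, as the size of the Log2FC divided by the square root of its F statistic. Scripts were tested on simulated data. Alternatives were a replicate block, DESeq2 1.42.0, RLE scaling, no filter, all 9 libraries in a fit, limma 3.58.1 on log2(TPM + 1) or log2(TPM + 0.1), a Log2FC and TPM criterion, leaving out each library, and other TPM limits for membership. Leaving out a replicate number under the block was added after seeing the data.

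The numbers pair the libraries: deviations from group means correlated between same-numbered libraries at 0.33, 0.44 and 0.40 (MAT with CYST), 0.47, 0.61 and 0.69 (MAT + COL with MAT) and 0.28, 0.35 and 0.35 (MAT + COL with CYST), while the other pairings gave -0.52 to 0.11. Deviations from a group mean cancel within the group, so positive values for same numbers push the other pairings down. The low values of those pairings are therefore not separate support.

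Members, substrate classes and lists were chosen with earlier results of these data known. Named genes were members called without the block, the 12 highest and 12 lowest Log2FC among those called with it whose groups did not overlap, the highest of each class and of all, the smallest p of the collagen comparison, the genes at the TPM limit, and a short list of well-known carriers; the other members called with the block, and any other gene, were named after their values were seen. Of the members, 156 matched a symbol in RefSeq's gene table (ARS-UCD2.0) and 155, all but SLC25A6_2, lay on the same chromosome. 36 members overlap another gene, 7 of them on the same strand. Some members are counted in every total but not reported by name here. Counts from amplified reads carry no molecular identifiers.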

Additional observations from a re-analysis of the deposited data

How the results depend on the processing

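The counts of solute carriers called depended on the fit, and the cause was not tested. When the numbers that pair the libraries entered as a block, the members called were 31 in MAT against CYST, in place of 4, and 15 in MAT + COL against CYST, in place of 5. DESeq2 called 26 and 29, and the fit with all 9 libraries called 13 and 14. Over all genes tested, the calls moved too, from 216 and 186 to 1277 and 658 with the block, 1278 and 1500 with DESeq2 and 580 and 601 with all 9 libraries. Without a filter on low counts, 8 members were called in MAT against CYST (293 of all 15495 genes tested). With a Log2FC beyond 1 in size and a TPM over 1 in every library also required there, 4 members passed without the block (1.45% of all genes). With the block, 20 did, 8 higher and 12 lower (6.01% of all genes, 2.93% higher and 3.08% lower). SLC6A14 and SLC5A1 could not meet that limit, at 0.0659 and 0.0726 TPM in CYST replicate 1. With limma on log2(TPM + 0.1) the counts were 1 and 0 (55 and 36 of all genes). With a pseudocount of 1 the count in MAT + COL against CYST was 1 (113 of all genes). DESeq2 gave no adjusted p for SLC5A1 in MAT against CYST. Leaving out 1 library at a time gave 0 to 8 members in MAT against CYST and 0 to 6 in MAT + COL against CYST, with the count of 0 reached without CYST replicate 1 in both. Over all genes, the same fits gave 5 to 267 and 3 to 186 calls. Total counts ranged from 6568968 to 17948600, and the part of depth in these counts was not tested.

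The blocked fit was also run without each replicate number in turn, an alternative chosen after seeing the data. Without the pairs numbered 1, 2 and 3, the blocked counts were 2, 15 and 39 in MAT against CYST and 3, 2 and 40 in MAT + COL against CYST. The calls over all genes in the same fits were 36, 614 and 1867, and 126, 109 and 2406. In MAT + COL against MAT, 1 member (SLC5A5) was called in the blocked fit without number 3, where 46 of all genes were, against 0 members otherwise.

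Among the carriers and partners outside the name pattern, 3 were called in each comparison with CYST. In MAT against CYST the count was 9 with the block, 10 with DESeq2, 8 with all 9 libraries, and 1 and 0 with limma at the pseudocounts of 1 and 0.1. In MAT + COL against CYST the respective counts were 6, 9, 6, 1 and 0. The blocked fits without numbers 1, 2 and 3 called 0, 5 and 11 in the former and 1, 1 and 11 in the latter. Leaving out 1 library gave 0 to 4 and 0 to 3.

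Class medians of the log2 fold change moved as follows. In MAT against CYST, the sugar class, at 0.55, was at 0.42 with the block, at 0.41 and 0.42 with limma, and at 0.40, 0.28 and 0.41 in the blocked fits without numbers 1, 2 and 3. In the same blocked fits, metals were at 0.0019 without number 2, nucleosides at 0.39 without number 3, and nucleotide sugars at -0.14 without number 1 and 0.039 without number 3. In MAT + COL against MAT, limma at the pseudocounts of 1 and 0.1 gave 0.075 and 0.077 for amino acids and peptides, 0.096 and 0.11 for metals, and 0.070 and 0.075 for mitochondrial carriers, and 0.12 at 0.1 for the name matches that are no carriers. The blocked fits there gave -0.29 for the unassigned class without number 1, 0.077 for mitochondrial carriers and -0.20 for sugars without number 2, and 0.24 for inorganic ions and -0.18 for sugars without number 3. They gave, in MAT + COL against CYST, 0.24 for organic ions without number 1, and -0.11 for monocarboxylates and 0.037 for sugars without number 2.

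Leaving out 1 library at a time, the medians in MAT against CYST ranged from -0.18 to 0.0073 for metals, -0.13 to 0.20 for monocarboxylates, -0.0265 to 0.40 for nucleosides, -0.26 to -0.017 for nucleotide sugars, -0.34 to 0.12 for organic ions and 0.30 to 0.95 for sugars. The ranges in MAT + COL against MAT were -0.0778 to 0.0569 for amino acids, -0.044 to 0.074 for mitochondrial carriers, 0.015 to 0.26 for monocarboxylates, -0.018 to 0.40 for organic ions, -0.26 to 0.029 for the unassigned class, -0.18 to 0.031 for sugars and -0.11 to 0.16 for vitamins. The ranges in MAT + COL against CYST were -0.037 to 0.35 for monocarboxylates, -0.082 to 0.12 for nucleotide sugars, -0.11 to 0.21 for organic ions and 0.19 to 0.91 for sugars.

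The sign of 3 log2 fold changes in MAT + COL against MAT turned when 1 library was left out. SLC16A1 ranged from -1.35 to 0.42 (without MAT replicate 2), SLC5A1 from -1.29 to 0.18 and SLC66A2 from -2.60 to 0.87 (both without MAT replicate 3). Only part of the named genes was followed under the alternatives, most of them in MAT against CYST alone. For these, 539 values under an alternative kept their direction and their side of the threshold. A further 71 kept the direction but no longer passed, and 122 kept the direction and now passed.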
